A study of Mus musculus with 32 samples.

Results

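The comparison described here sets tumors of an anti-PD-1 resistant mouse colon cancer line against the same line in culture. MC38 is a colon adenocarcinoma line of C57BL/6 mice, and MC38-resistant is its labelled resistant derivative. The resistance is to anti-PD-1, and PD-1 is an inhibitory receptor of T cells. The members were 17 of the 32 RNA libraries of the series, chosen by their labels: 12 labelled MC38-resistant and subcutaneous tumor, and 5 labelled MC38-resistant and cultured cells. Tumors grew under the skin of C57BL6/J mice that received no treatment, the cultures are labelled untreated as well, and sex and age are not in the labels. Both groups share the resistant line itself. Of the other libraries, 13 parental tumors and 2 parental cultures entered only the comparison between the lines at the end. A tumor library holds RNA of cancer cells together with RNA of the host cells that grew into the tumor, whereas a culture library holds the line alone. The host mice have an intact immune system, and the labels do not say whether the resistant line is 1 clone.

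Levels are in TPM, a transcript abundance that is scaled by gene length and to the same total in every library. TPM values keep no read totals, which leaves the depth unknown, and the number of libraries sets the precision. Of 22329 gene symbols, 12312 reached 1 TPM in at least 5 of the 17 libraries and were tested with limma on log2(TPM + 1), and a gene is called here when its Benjamini-Hochberg adjusted p is under 0.05. Log2 differences are tumor minus culture on that scale, which understates the change of low genes. Several mitochondrial genes that every cell uses were listed at 0 in every library, so a 0 can be a failed estimate. A gene at 0 in all cultures is therefore described by its tumor values, with no fold. The labels do not say that the 5 cultures were grown separately, so p-values measure the spread between these libraries, which may be technical. Tumor and culture libraries carry different title prefixes, and if the prefix marks a batch, batch and setting cannot be told apart.

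Libraries resembled their own group closely, with a median correlation across genes of 0.985 in tumors and 0.991 in cultures, against 0.950 between a tumor and the cultures. Mitochondrially encoded genes took 10.01% ± 2.68 (SD, n = 12) of TPM in tumors and 6.35% ± 1.05 (n = 5) in cultures. A length index, the level of genes in the top quintile of transcript length minus that in the bottom quintile, ran from 0.0274 to 0.194 in tumors and from -0.151 to -0.0469 in cultures, with no overlap. A GC index, the level of GC-rich minus GC-poor genes, overlapped between the groups, and 4 tumors stood above 0.2 on it. Culture replicate 1 stood apart from the other 4 cultures. On the log2(TPM + 1) scale, 136 genes were at least 4-fold higher in both parental cultures than in the other 4 resistant cultures. Replicate 1 was above all 4 in 115 of these (84.6%). Each other replicate, tested the same way on its own 55 to 57 genes, was so in 5.26% to 14.5%. Replicate 1 was among the 4 cultures that these had to exceed, so their shares are in part set by it. Values without it are given beside results that it moves.

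Cancer lines in culture grow in rich medium and ample oxygen without immune cells. In a tumor, leukocytes, vessels and fibroblasts enter the tissue, lymphocytes and other cells release interferons, and parts of the mass lie far from vessels. Interferons bind receptors on the cell surface, and the signal switches on antiviral genes, chemokines and the machinery that presents peptides on MHC class I. Low oxygen stabilises HIF, which raises genes of glucose uptake, vessel growth and pH control.

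Tumors differed from culture in about every second gene tested. Of 12312 genes, 4342 (35.3%) were higher in tumors, 1847 (15%) were lower and 6123 were not called. With a 2-fold minimum added, 2013 (16.3%) were higher and 180 (1.46%) lower. Every tumor lay above every culture for 2126 genes (17.3%) and below every culture for 567 (4.61%). The median log2 difference over all genes was 0.18, and 70.2% of the calls were higher. This balance depended on the scaling: after quantile normalization the median was -0.13, and 2279 genes were higher and 3577 lower, so that 38.9% of the calls were higher. Without culture replicate 1, 4296 genes were higher and 1821 lower, and 4016 of the higher and 1674 of the lower calls were the same genes.

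Most of the surplus of higher calls lay among genes that did not reach 5 TPM in every culture. Of 8358 genes with at least 5 TPM in all 5 cultures, 1910 were higher and 1758 lower, with a median of 0.01. With the 2-fold minimum added, 364 of them were higher and 156 lower, so a surplus was present here as well. This class was itself chosen by high culture values, which bears on its balance. Of 500 tested genes under 0.1 TPM in all cultures, 490 were higher and none lower. These could pass the filter only through tumors, so their count follows from the filter. The remaining 3454 genes gave 1942 higher and 89 lower. They too were set apart by their culture values, and those low in culture had little room to fall. Their balance thus follows in part from how the class was made. A gene absent from culture may come from host cells or be switched on in cancer cells, and bulk RNA cannot tell these apart, nor fewer cells of a type from less RNA per cell.

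Macrophage and monocyte genes were abundant in every tumor and low in culture. Most markers of host cells passed the filter only through tumors and so had to differ, and their counts are given as a description. Of 20 macrophage genes 19 rose and 1 fell, with a median log2 difference of 4.67, and their summed level was 1261 to 2153 TPM in tumors and 29.7 to 55.7 TPM in cultures. Csf1r, the receptor for the growth factor CSF1 that macrophages depend on, was 14.1 to 24.3 TPM (median 17.4) in tumors and at most 0.120 TPM in any culture. C1qa, a complement subunit made by macrophages, was 63.8 to 124 TPM (median 86.9) in tumors and at most 0.613 TPM in culture. Tyrobp, the adaptor that signals from myeloid receptors, was 25.7 to 52.4 TPM (median 34.3) and was listed at 0 in all 5 cultures, as was Aif1, a macrophage actin-binding protein, which reached 17.1 to 68.2 TPM (median 36.5). The lowest tumor was far above 0 for both. The 10 largest rises among genes under 0.1 TPM in every culture hold Tyrobp and Aif1, and also Ms4a6c, a membrane protein of myeloid cells, at 30.4 to 51.8 TPM (median 46.4), Itgam, the CD11b integrin chain, at 18.5 to 62.03 TPM (median 41.2), and Cfb, complement factor B, at 26.8 to 53.7 TPM (median 35.04). Cd14, the endotoxin co-receptor, was the 1 macrophage gene that fell, with 16.5, 13.2, 18.9, 20.2 and 18.8 TPM in the 5 cultures and 5.13 to 15.4 TPM (median 9.27) in tumors (log2 -0.79 ± 0.20 SE, adjusted p = 0.00250). The cultured line thus expressed Cd14, and also Cd68, a lysosomal macrophage marker, at 5.18 to 6.86 TPM in culture against 54.1 to 131 TPM (median 95.7) in tumors.

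Monocyte genes rose together with them. All 8 were higher, and 7 after quantile normalization. Ly6c2, a marker of inflammatory monocytes, was 53.9 to 236 TPM (median 99.03) in tumors and at most 0.344 TPM in culture. Ccr2, the receptor for the chemokine CCL2, was 3.38 to 10.9 TPM (median 6.74) in tumors. Of 11 neutrophil genes 6 were tested and all 6 rose, but the defining granule genes S100a8 and S100a9 reached only 3.07 and 4.39 TPM in any tumor and were listed at 0 in some. These calls ended after quantile normalization, which left 3 of the 6 (adjusted p = 0.534 for both). Mmp9, a gelatinase on the same list, was expressed by the cultured line itself, at 80.4, 138, 179, 148 and 123 TPM. The pan-leukocyte gene Ptprc, CD45, was 19.7 to 50.3 TPM (median 22.8) in tumors and at most 0.147 TPM in culture. Laptm5, a lysosomal protein of blood cells that counts as a leukocyte marker, stood at 15.9, 59.98, 121, 128 and 73.9 TPM in the 5 cultures, so the line itself expresses it.

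**Figure D1:**
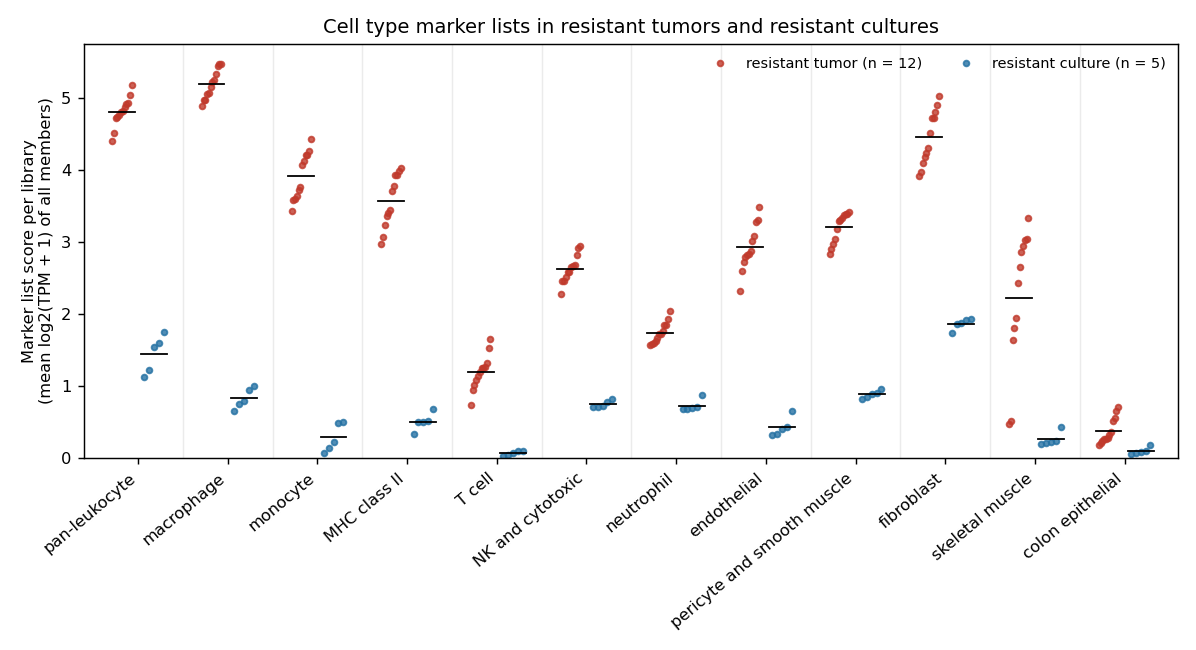
Marker list score per library (mean log2(TPM + 1) over all members of a list, vertical axis) for 12 cell type lists, in 12 resistant tumors (red) and 5 resistant cultures (blue); each point is 1 library, points of a group are spread sideways by value, and black lines are group means. Every tumor lies above every culture for each list shown, the colon epithelial scores stay under 1 in both groups, and 2 tumors are close to the cultures in skeletal muscle.

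T cell genes were present at low levels. Of 19 T cell genes 11 were listed at 0 in all cultures, 10 passed the filter and all 10 were higher (4 after quantile normalization), with a summed level of 20.4 to 62.4 TPM in tumors against 0.366 to 1.80 TPM in cultures. Cd3e, a chain of the T cell receptor complex, was 2.46 to 10.6 TPM (median 5.24), and Cd8a, the co-receptor of cytotoxic T cells, was 0.502 to 3.31 TPM (median 1.61), and both were listed at 0 in all cultures. Of 12 tested NK and cytotoxic genes 11 rose, and 7 after quantile normalization. Of the 14 genes on that list 11 were listed at 0 in all cultures, while 2 had at least 5 TPM in every culture. The summed level of the list was 200.02 to 361.34 TPM in tumors and 93.615 to 218.18 TPM in cultures. The groups thus overlapped in this sum, and the cultured line itself expresses part of the list. Gzmb, granzyme B, was 14.02 to 33.4 TPM (median 23.6), Gzma was 6.10 to 22.05 TPM (median 11.8) and Prf1, perforin, was 2.68 to 7.66 TPM (median 4.88). Gzmc, a granzyme with close copies that can share reads, was also among the 10 largest rises of genes under 0.1 TPM in culture, at 28.3 to 97.9 TPM (median 77.6). Ncr1, the NK receptor NKp46, was 0.459 to 2.66 TPM (median 1.34). The calls of Cd8a and Ncr1 ended after quantile normalization (adjusted p = 0.113 and 0.297). The median TPM of each granzyme named was thus above that of Cd3e, Cd8a and Ncr1, and the cells that made them were not identified.

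MHC class II genes, which dendritic cells, macrophages and B cells use to present peptides to helper T cells, were higher in all 8 of 8 tested. After quantile normalization 6 of the 8 were higher. Cd74, the invariant chain, was 111 to 366 TPM (median 298) in tumors and 0.930, 0.926, 0.4195, 1.29 and 1.21 TPM in the 5 cultures. H2-Aa was 19.1 to 70.5 TPM (median 48.1) and H2-Ab1 10.8 to 99.4 TPM (median 34.7), and both were listed at 0 in all cultures. H2-Eb1, of the second class II pair, was 8.76 to 55.6 TPM (median 35.01). The spread of H2-Ab1 between tumors was wide, and every tumor was above every culture for 7 of the 8 genes.

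Genes of vessels, pericytes and fibroblasts were higher in tumors as well. Of 19 tested endothelial genes all 19 rose, and 16 after quantile normalization. The summed level of the list was 150.1 to 314 TPM in tumors and 8.64 to 27.2 TPM in cultures. Pecam1, the endothelial adhesion molecule CD31, was 13.99 to 23.8 TPM (median 18.1) against at most 0.659 TPM in culture. Emcn, endomucin, was 8.27 to 19.98 TPM (median 13.4), and Plvap, of fenestrated vessels, was 13.1 to 47.8 TPM (median 21.8). Cdh5, VE-cadherin, was 21.9 to 57.5 TPM (median 41.9) in tumors but reached 7.18 TPM in culture replicate 1, against 0.235 to 1.87 TPM in the other cultures. All 13 tested pericyte and smooth muscle genes rose, and 10 after quantile normalization. Acta2, smooth muscle actin, was 16.1 to 56.9 TPM (median 36.7) in tumors against 0.681 to 2.70 TPM in culture. Cspg4, the proteoglycan NG2, was 9.88 to 24.9 TPM (median 16.9) against 0.637 to 1.11 TPM. Pdgfrb, a PDGF receptor of pericytes, was 141 to 218 TPM (median 171) in tumors and 16.5 to 27.6 TPM in culture, so the line expresses it.

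Of 18 fibroblast genes 16 rose, and 12 after quantile normalization. Postn, periostin, was 23.3 to 91.7 TPM (median 44.9) in tumors and at most 0.635 TPM in culture, and Dpt, dermatopontin, was 19.6 to 48.8 TPM (median 36.1) and at most 1.48 TPM. Col1a1, the main collagen of connective tissue, was 13.01 to 618 TPM (median 427) in tumors and 1.55 to 14.1 TPM in culture, and 1 tumor lay below the highest culture. Dcn, the proteoglycan decorin and a standard fibroblast marker, was not called: it stood at 211, 501, 791, 688 and 753 TPM in the 5 cultures and 164 to 619 TPM (median 516) in tumors (log2 -0.26 ± 0.31 SE, adjusted p = 0.506). Fabp4, a fatty acid carrier of fat and endothelial cells, was 15.5 to 52.6 TPM (median 35.3) and listed at 0 in all cultures. Skeletal muscle genes rose in 12 of 13 tested, in 7 after quantile normalization, and differed widely between tumors. Ttn, the giant sarcomere protein, ran from 0.646 to 49.5 TPM and Tnnt3, fast troponin T, from 0.260 to 110.5 TPM, with the lowest values in tumor replicates 8 and 11. The other 10 tumors were well above these.

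The labelled cell type was checked against colon epithelial markers. Of 19 such genes 1 passed the filter, Cdh1, E-cadherin, at no more than 2.20 TPM in any tumor. Epcam stayed at or below 1.13 TPM and Krt8 at or below 0.346 TPM in all 17 libraries. Vim, the mesenchymal filament vimentin, stood at 2082 to 2355 TPM in cultures. The defining markers of colon epithelium were thus at or near 0 in tumors and cultures.

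Type I interferon response genes rose in tumors without exception. All 28 members were higher and every tumor lay above every culture for each of the 28, as was so for 17.3% of all genes, with a median log2 difference of 3.44, against 35.3% called higher and a median of 0.18 over all genes. The counts were 28 of 28 after quantile normalization and without culture replicate 1 as well. Of the 28 genes 14 had at least 5 TPM in every culture, so the cultured line already expressed them. The promoters of 4 interferon genes are shown because they hold the motif by which interferon-activated factors bind DNA, written GAAANNGAAA, where N is any base. They are the 250 bases before the start site, from RefSeq on GRCm38.p6, 5′ to 3′ in the direction of the gene, with matches on either strand in capitals.
Isg15 (chr4:156200819-156201068, minus strand): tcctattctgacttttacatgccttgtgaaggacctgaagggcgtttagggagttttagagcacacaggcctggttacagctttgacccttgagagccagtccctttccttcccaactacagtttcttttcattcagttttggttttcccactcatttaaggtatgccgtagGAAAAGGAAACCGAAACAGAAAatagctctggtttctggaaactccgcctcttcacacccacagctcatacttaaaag
Ifit1 (chr19:34640639-34640888, plus strand): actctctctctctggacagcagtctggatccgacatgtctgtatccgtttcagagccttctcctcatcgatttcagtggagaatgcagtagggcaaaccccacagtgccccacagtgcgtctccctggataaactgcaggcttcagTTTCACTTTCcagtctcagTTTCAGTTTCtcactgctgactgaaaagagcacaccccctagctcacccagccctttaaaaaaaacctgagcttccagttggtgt
Gbp2 (chr3:142620413-142620662, plus strand): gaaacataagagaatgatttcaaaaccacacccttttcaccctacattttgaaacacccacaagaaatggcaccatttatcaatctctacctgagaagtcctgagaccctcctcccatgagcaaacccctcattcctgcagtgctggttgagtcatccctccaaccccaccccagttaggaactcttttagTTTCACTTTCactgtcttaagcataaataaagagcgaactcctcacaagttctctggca
Irgm2 (chr11:58214727-58214976, plus strand): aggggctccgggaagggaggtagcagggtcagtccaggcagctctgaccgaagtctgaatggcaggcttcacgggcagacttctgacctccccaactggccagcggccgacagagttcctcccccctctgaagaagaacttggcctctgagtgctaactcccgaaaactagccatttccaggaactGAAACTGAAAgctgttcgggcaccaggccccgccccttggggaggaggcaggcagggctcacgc

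In Isg15 the matches overlap, 3 of them starting -78 to -66 bases from the start site, and Gbp2 has 1 match at -59. Of the 28 type I genes 19 had a promoter in the table and 8 of these (42.1%) held the motif, as did 11 of 14 interferon gamma response genes (78.6%). Of 14 MHC class I genes 1 held it (7.14%), against 3.46% of 27025 genes with a promoter. A match is a description of the sequence and not a measured binding site.

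Isg15, a ubiquitin-like antiviral protein, stood at 75.8, 89.3, 51.6, 48.001 and 47.5 TPM in the 5 cultures and at 466 to 1029.5 TPM (median 721) in tumors (log2 3.48 ± 0.18 SE, adjusted p = 9.09e-13). Ifit1, which binds foreign RNA, was 9.29, 6.38, 6.09, 4.43 and 7.84 TPM in culture and 71.7 to 138 TPM (median 93.5) in tumors (log2 3.65 ± 0.16 SE, adjusted p = 7.94e-14). No culture came near the lowest tumor for either gene. Rsad2, the antiviral enzyme viperin, was 9.26 to 24.3 TPM in culture and 145 to 232 TPM (median 178) in tumors. Zbp1, a sensor of left-handed nucleic acids that can trigger necroptosis, had the second largest rise among genes with at least 5 TPM in every culture, from 10.2 to 33.6 TPM in culture to 527 to 982 TPM (median 598) in tumors (log2 5.01 ± 0.21 SE, adjusted p = 3.02e-14). The 12 largest such rises also hold Mndal, Oasl2, Rsad2, Parp14, Gbp3, Isg15, H2-Q4 and Tap1. Mndal, of the interferon-inducible p200 family, rose by 4.50 on the log2 scale, Oasl2, an oligoadenylate synthetase-like protein, by 4.11, and Parp14, a mono-ADP-ribosyltransferase, by 3.50. Gbp3, a guanylate-binding GTPase, and H2-Q4, a nonclassical class I chain, rose by 3.50 and 3.35. Oas2 and Oas3, which make the messenger that activates RNase L, rose by 5.94 and 4.17, and Bst2, the membrane tether tetherin, by 2.48. Oas, Gbp and H2-Q genes have close copies that can share reads, so single members of these families are uncertain.

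Interferon gamma response genes followed, with 18 of 19 tested higher and a median of 3.50. Cxcl9, a chemokine that draws activated T cells, was 0.860, 3.75, 6.19, 2.48 and 6.96 TPM in the 5 cultures and 399 to 1086 TPM (median 537) in tumors (log2 7.07 ± 0.29 SE, adjusted p = 2.53e-14), the largest log2 difference of the 19. Its relative Cxcl10 was already 489, 637, 503, 479 and 542 TPM in culture and 656 to 2069 TPM (median 1032) in tumors (log2 0.98 ± 0.20 SE, adjusted p = 4.44e-04), a far smaller difference. Irf1, the interferon-induced activator, was 49.9, 48.1, 44.8, 37.002 and 41.2 TPM in culture and 109 to 192 TPM (median 161) in tumors (log2 1.78 ± 0.14 SE, adjusted p = 6.38e-10). GTPases that attack the vacuoles of intracellular microbes also rose: Gbp2 by 4.41, Irgm2 by 4.03 and Iigp1 by 6.01 on the log2 scale. Gbp2 stood at 2.49 to 6.01 TPM in culture and 68.5 to 137 TPM (median 96.2) in tumors. Socs1, the feedback inhibitor of the pathway, was the exception, with 14.04, 24.05, 29.8, 29.7 and 26.8 TPM in culture and 16.7 to 36.1 TPM (median 22.9) in tumors (log2 -0.01 ± 0.18 SE, adjusted p = 0.956; -0.20 without culture replicate 1). Leukocyte markers moved with these genes in the same libraries, as given above, and their part in the rise was not tested.

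**Figure D2:**
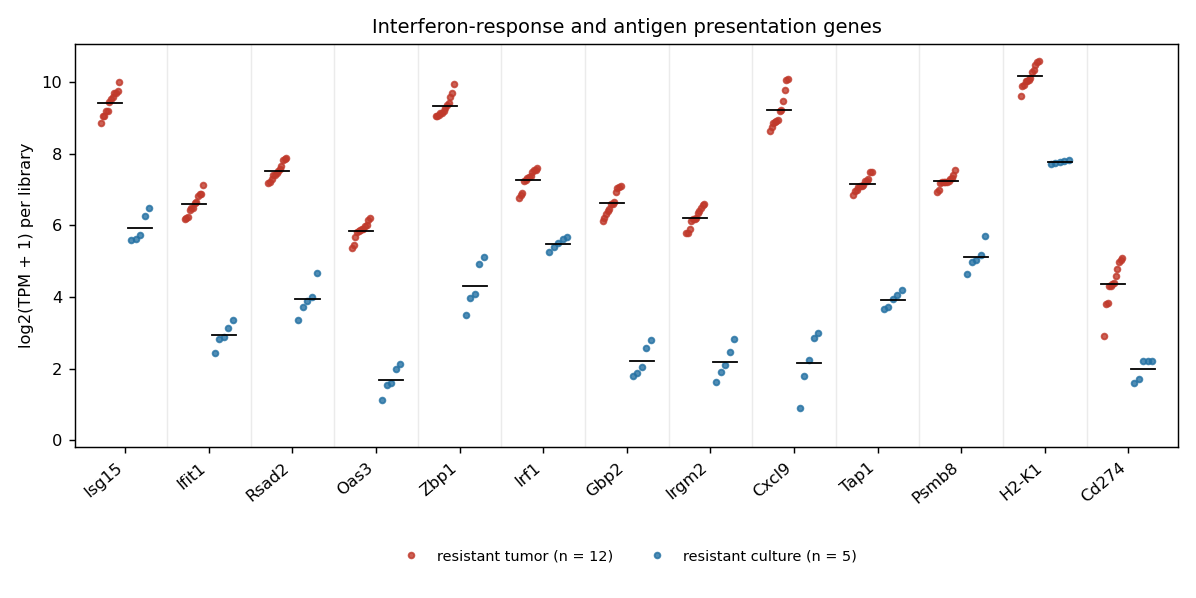
Level of 13 interferon-response and antigen presentation genes per library (log2(TPM + 1), vertical axis) in 12 resistant tumors (red) and 5 resistant cultures (blue); points are libraries, spread sideways by value within a group, and black lines are group means. Every tumor lies above every culture for each gene shown, and Cxcl9 has the widest gap.

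MHC class I presentation rose at most of its steps. Of 16 genes 13 rose, 2 fell and 1 was not called, and 15 of them had at least 5 TPM in every culture. The class I heavy chain H2-K1 was 222, 224, 207, 217 and 213 TPM in the 5 cultures and 781 to 1529 TPM (median 1088) in tumors (log2 2.39 ± 0.13 SE, adjusted p = 2.82e-12), and H2-D1 rose by 1.90. B2m, the light chain, was 1601 to 2289.9 TPM in culture and 7461 to 13031 TPM (median 9918) in tumors. Tap1, which pumps peptides into the endoplasmic reticulum, was 14.3, 17.4, 11.6, 12.2 and 15.5 TPM in culture and 115 to 180.0 TPM (median 138) in tumors (log2 3.25 ± 0.12 SE, adjusted p = 3.38e-15), and Psmb8, an immunoproteasome subunit, rose by 2.12. Calr, the chaperone calreticulin, was lower, with 949 to 1212 TPM (median 1068) in tumors against 1245 to 1581 TPM in culture (log2 -0.39 ± 0.09 SE, adjusted p = 9.06e-04). That call ended after quantile normalization (adjusted p = 0.0933). Pdia3, a disulfide isomerase of the same peptide-loading complex, was lower by 0.33 on the log2 scale. Every tumor lay below every culture for both.

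Genes of checkpoint ligands and immune suppression, a list that also holds Cd80 and Cd86, were mostly higher in tumors. Of 16 tested 14 were higher, Ptgs2 was lower and Pvr was not called. In the list 4 genes were listed at 0 in all cultures, and such genes could pass the filter only through tumors. Cd274, which encodes the PD-1 ligand PD-L1, was 3.64, 3.63, 2.26, 2.01 and 3.59 TPM in culture and 6.51 to 32.97 TPM (median 19.7) in tumors (log2 2.38 ± 0.27 SE, adjusted p = 2.86e-07). Lgals9, galectin-9, was 13.1, 7.04, 5.69, 4.83 and 7.49 TPM in culture and 111 to 197 TPM (median 138) in tumors (log2 4.11 ± 0.17 SE, adjusted p = 3.03e-14), and Vsir, the checkpoint protein VISTA of myeloid cells, was at most 1.12 TPM in culture and 23.1 to 53.6 TPM (median 37.9) in tumors. Cd276, B7-H3, was 16.7, 3.82, 0.281, 0.472 and 1.83 TPM in the 5 cultures, and replicate 1 alone overlapped the tumors, at 12.9 to 52.8 TPM (median 34.6). Its log2 difference was 3.28 with and 3.87 without that replicate.

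Complement genes were higher in 13 of 13 tested (10 after quantile normalization). None of the 13 reached 5 TPM in every culture and 5 were under 0.1 TPM in all cultures, so the filter fixes part of this count, which is a description. C3, the central component, was 0.312 to 4.55 TPM in culture and 20.01 to 73.1 TPM (median 39.3) in tumors, and Serping1, the C1 inhibitor, was at most 0.466 TPM in culture and 27.999 to 63.4 TPM (median 44.1) in tumors. Of 21 chemokines and cytokines tested 15 rose, 4 fell and 2 were not called, against 35.3% higher and 15% lower over all genes. The share that fell thus lay near that of all genes, and falls numbered 2 once the GC index entered the fit. Quantile normalization gave 13 higher and 5 lower, against 18.5% and 29.1% over all genes. Of the 28 genes on the list 8 were listed at 0 in all cultures. Such genes could pass the filter only through tumors, so the filter fixes part of the count of rises. Ccl12, which attracts monocytes, was listed at 0 in all cultures and was 49.9 to 110.2 TPM (median 75.6) in tumors. Il1b, the inflammatory cytokine interleukin-1 beta, was also listed at 0 in all cultures and was 6.44 to 17.4 TPM (median 12.6) in tumors, while Il33, an alarmin, went from 2.58 to 8.86 TPM in culture to 37.9 to 98.8 TPM (median 72.2). Ccl2, the main ligand of CCR2, went the other way, with 254, 565, 502, 367 and 617 TPM in the 5 cultures and 87.6 to 209.6 TPM (median 109) in tumors (log2 -1.95 ± 0.19 SE, adjusted p = 3.09e-08), every tumor below every culture. Ccl7, Cxcl1 and Il11 were lower by 0.77, 0.64 and 0.62 on the log2 scale, with groups that overlapped, and the Il11 difference was -0.89 without culture replicate 1. Cxcl16, a membrane-bound chemokine, rose by 4.51. Without culture replicate 5 the calls of Ccl7, Cxcl1 and Il11 missed the threshold (adjusted p = 0.0570, 0.0689 and 0.0634).

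Genes of the extracellular matrix were higher in tumors. All 16 collagen chains tested rose (15 rose and 1 fell after quantile normalization), with a median of 2.45, and their summed level was 2719 to 4709 TPM in tumors against 886 to 1005 TPM in cultures. Col3a1, a fibrillar collagen, was 6.12, 14.97, 8.08, 17.99 and 3.88 TPM in the 5 cultures and 316 to 756 TPM (median 498) in tumors (log2 5.68 ± 0.26 SE, adjusted p = 1.16e-13). Col5a2, which joins fibrillar collagens, rose by 4.51. Col15a1, of vessel basement membranes, was at most 0.524 TPM in culture and 28.9 to 73.9 TPM (median 53.001) in tumors. Bgn, the proteoglycan biglycan, had the largest rise of all genes with at least 5 TPM in every culture: 16.4, 33.4, 14.6, 22.4 and 8.87 TPM in culture and 858 to 2719 TPM (median 1298) in tumors (log2 6.19 ± 0.25 SE, adjusted p = 2.01e-14). Fn1, fibronectin, was 139, 143, 119.7, 105 and 102 TPM in culture and 649 to 887 TPM (median 846) in tumors (log2 2.73 ± 0.10 SE, adjusted p = 7.08e-15). Sparc, a collagen-binding matrix protein, rose by 2.69, and Nid1, the basement membrane linker nidogen, went from at most 0.294 TPM to 19.9 to 64.5 TPM (median 48.1). Of 16 matrix glycoproteins 13 rose and 1 fell. That 1 was Spp1, osteopontin, at 1049, 616, 539.5, 597 and 584 TPM in culture and 132 to 465 TPM (median 368) in tumors (log2 -1.003 ± 0.23 SE, adjusted p = 0.00109; -0.83 without culture replicate 1). Of 16 matrix proteases and inhibitors 12 rose and 2 fell, among the rises Mmp12, the macrophage elastase, by 4.04, Mmp13, a collagenase, by 4.24, and Plau, the urokinase plasminogen activator, by 3.78. Igfbp3, a carrier of insulin-like growth factors, was 32.2 to 80.7 TPM (median 53.6) in tumors and at most 0.0619 TPM in culture. Fibroblast, pericyte and macrophage markers were higher in the same tumors, as given above, and their part in these differences was not tested.

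Hypoxia response genes rose in 16 of 17, with a median of 1.43, and in 14 of 17 after quantile normalization. Of the 17 genes, 13 had at least 5 TPM in every culture. Car9, a carbonic anhydrase that is a standard hypoxia marker, was 7.62, 2.12, 1.08, 1.26 and 0.4205 TPM in the 5 cultures and 24.9 to 62.4 TPM (median 44.8) in tumors (log2 3.88 ± 0.30 SE, adjusted p = 1.06e-09). Bnip3, a mitophagy receptor, was 219, 99.4, 55.3, 52.3 and 39.4 TPM in culture and 226 to 542 TPM (median 395) in tumors (log2 2.27 ± 0.28 SE, adjusted p = 8.34e-07). For both genes the highest culture was replicate 1, which lay well above the other 4. Every tumor was above it, and without it the differences were 4.29 and 2.65. Vegfa, the vessel growth factor, was 113, 113, 89.2, 99.2 and 99.7 TPM in culture and 192 to 349 TPM (median 283) in tumors (log2 1.43 ± 0.10 SE, adjusted p = 2.92e-10), and Kdm3a, a histone demethylase, and Ddit4, an inhibitor of mTORC1, rose by 1.44 and 1.89. Ndrg1, a stress-responsive gene, and P4ha1, a collagen prolyl hydroxylase, rose by 2.32 and 1.16. The promoters of Car9 and Bnip3 are shown with the core motif that HIF binds, ACGTG, in capitals on either strand.
Car9 (chr4:43506776-43507025, plus strand): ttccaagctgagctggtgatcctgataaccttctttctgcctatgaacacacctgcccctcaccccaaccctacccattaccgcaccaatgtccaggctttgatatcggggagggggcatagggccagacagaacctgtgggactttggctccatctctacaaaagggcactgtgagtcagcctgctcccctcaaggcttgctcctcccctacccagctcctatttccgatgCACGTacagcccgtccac
Bnip3 (chr7:138909507-138909756, minus strand): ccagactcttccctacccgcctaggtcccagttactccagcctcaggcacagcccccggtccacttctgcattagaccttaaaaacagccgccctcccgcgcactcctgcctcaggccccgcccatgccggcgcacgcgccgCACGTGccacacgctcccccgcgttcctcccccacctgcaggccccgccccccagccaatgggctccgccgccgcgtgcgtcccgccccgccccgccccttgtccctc

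In Car9 the 1 match starts -18 bases from the start site, and the matches of Bnip3 on both strands overlap at -108 and -107. Of 16 hypoxia genes with a promoter 12 (75%) held ACGTG, against 18.5% of all genes. Glycolysis genes rose in 10 of 15 and fell in none, with a median of 0.63. Slc2a1, the glucose transporter GLUT1, was 111, 88.9, 83.5, 76.1 and 73.7 TPM in culture and 154 to 413 TPM (median 249) in tumors (log2 1.47 ± 0.19 SE, adjusted p = 1.86e-06), and Hk2, hexokinase 2, rose by 1.28. Pfkp, a phosphofructokinase, rose by 1.32, with culture replicate 1 inside the tumor range at 160.0 TPM and a difference of 1.54 without it. Ldha, lactate dehydrogenase A, was not called (log2 -0.17 ± 0.14 SE, adjusted p = 0.324), with 926 to 1839 TPM (median 1313) in tumors and 1131 to 1845 TPM in culture. The difference between these genes was not itself tested.

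**Figure D3:**
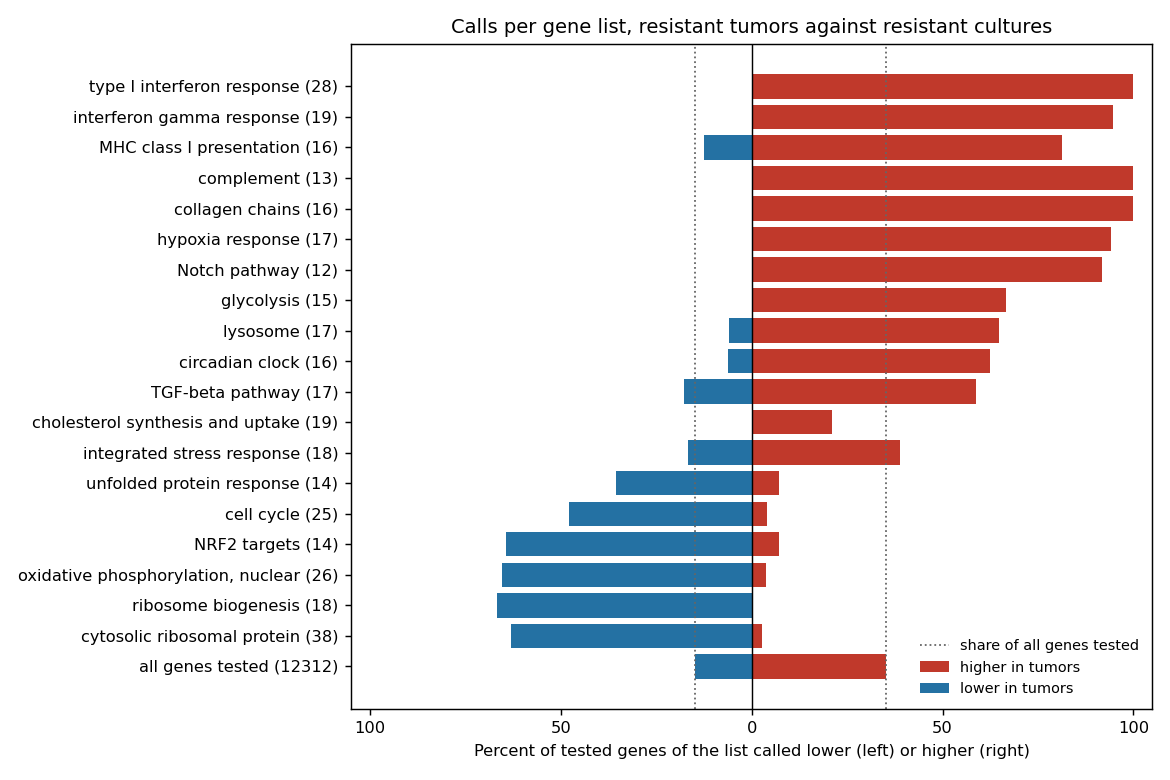
Share of the tested genes of 19 gene lists called higher (red, right) or lower (blue, left) in resistant tumors than in resistant cultures (percent, horizontal axis), with the number of tested genes in brackets and all 12312 genes in the bottom bar; dotted lines repeat the shares over all genes, 35.3% higher and 15% lower. Interferon, complement, collagen and hypoxia lists extend to the right, and NRF2, respiratory chain, ribosome and cell cycle lists to the left.

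Notch pathway genes rose in 11 of 12 tested, and in 9 after quantile normalization. The receptor Notch1 was 8.21, 8.55, 6.53, 15.7 and 6.25 TPM in culture and 39.5 to 78.9 TPM (median 56.4) in tumors (log2 2.61 ± 0.18 SE, adjusted p = 1.03e-10). Its endothelial ligand Dll4 was at most 0.117 TPM in culture and 2.49 to 10.1 TPM (median 4.62) in tumors, and the target Heyl was 2.44 to 5.68 TPM (median 3.58). Endothelial and pericyte markers rose in the same tumors, as given above, and their part in this was not tested. TGF-beta pathway genes gave 10 higher and 3 lower of 17, against 35.3% higher and 15% lower over all genes. The share that fell thus lay near that of all genes. Tgfbi, an induced matrix protein, was at most 0.995 TPM in culture and 51.98 to 128 TPM (median 72.5) in tumors, and the ligand Tgfb1 rose by 0.74. The 3 lower genes were Id1, Id2 and Id3, inhibitors of helix-loop-helix transcription factors and standard targets of BMP signaling. Id1 had the largest fall of all genes whose culture mean reached 5 TPM, with 56.2, 108, 173, 174 and 119.9 TPM in the 5 cultures and 2.99 to 19.8 TPM (median 10.5) in tumors (log2 -3.46 ± 0.31 SE, adjusted p = 1.10e-08). Id3 was 29.3, 46.4, 38.6, 42.9 and 33.3 TPM in culture and 4.17 to 11.9 TPM (median 7.21) in tumors (log2 -2.26 ± 0.18 SE, adjusted p = 1.06e-09), and Id2 was lower by 0.69 on the log2 scale. For Id1 and Id3 every tumor lay below every culture.

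Immediate early genes, induced by serum and handling, gave 8 higher, 2 lower and 8 not called of 18. After quantile normalization 4 were higher and 4 lower. These shares lie near those over all genes, 35.3% higher and 15% lower as deposited and 18.5% and 29.1% after quantile normalization. Fos rose from 0.782 to 1.31 TPM in culture to 2.0 to 15.8 TPM (median 4.96) in tumors, and Dusp1, a phosphatase of MAP kinases, rose by 1.70. The Fos call ended after quantile normalization (adjusted p = 0.133). Egr1 was not called, with 27.2, 73.3, 84.3, 86.7 and 66.6 TPM in culture and 41.7 to 85.2 TPM (median 49.7) in tumors (log2 -0.28 ± 0.20 SE, adjusted p = 0.255). Without culture replicate 1, its lowest culture, it was lower in tumors (log2 -0.58, adjusted p = 0.00243). Of 12 YAP and TEAD targets 5 rose, a share near that over all genes, and none fell, against 4 and 2 after quantile normalization. They differed among themselves: Ctgf, a matricellular protein, was 6.23 to 27.2 TPM (median 14.6) in tumors and at most 0.0719 TPM in culture, Ankrd1 rose by 0.92, and Cyr61, a relative of Ctgf, was 25.98 to 39.5 TPM in culture and 26.1 to 60.8 TPM (median 35.3) in tumors (log2 0.19 ± 0.18 SE, adjusted p = 0.410).

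Growth factors and IGF-binding proteins gave 11 higher and 3 lower of 18, against 35.3% higher and 15% lower over all genes. After quantile normalization 7 were higher and 4 lower, against 18.5% and 29.1% over all genes. The list's median was 1.20 as deposited and 0.15 after that scaling. The share that fell lay near or under that of all genes. Hgf, the ligand of MET, was 14.3, 21.9, 29.8, 27.7 and 25.8 TPM in culture and 58.8 to 93.3 TPM (median 77.6) in tumors (log2 1.66 ± 0.14 SE, adjusted p = 4.60e-09), and Igfbp7 rose by 4.62. Fgf7, keratinocyte growth factor, fell from 265, 114, 253, 205 and 229 TPM in the 5 cultures to 14.2 to 33.5 TPM (median 19.9) in tumors (log2 -3.20 ± 0.20 SE, adjusted p = 1.89e-11). Ereg, epiregulin, a ligand of the EGF receptor, fell from 6.36, 9.79, 26.8, 20.9 and 24.5 TPM to 0.196 to 2.35 TPM (median 1.08) (log2 -3.04 ± 0.27 SE, adjusted p = 7.18e-09). Both falls were seen in 12 of 12 tumors against every culture.

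The 15 largest falls among genes whose culture mean reached 5 TPM include Id1, Fgf7 and Ereg, given above, and the genes that follow. Slco4a1, an organic anion transporter, was 100, 119, 100, 86.2 and 108 TPM in the 5 cultures and 6.09 to 16.7 TPM (median 8.77) in tumors (log2 -3.36 ± 0.16 SE, adjusted p = 2.36e-13), a gap wider than the spread of either group. Ptgs2, the inducible prostaglandin synthase COX-2, was 60.3, 22.4, 105, 144 and 148 TPM in culture and 5.80 to 26.01 TPM (median 12.7) in tumors (log2 -2.53 ± 0.39 SE, adjusted p = 1.86e-05), with 9 of 12 tumors below the lowest culture, replicate 2. Ier3, an early response gene of cell survival, was 237, 425, 434, 428 and 454 TPM in culture and 36.8 to 116 TPM (median 69.6) in tumors (log2 -2.42 ± 0.20 SE, adjusted p = 2.30e-09). Nme1, a nucleoside diphosphate kinase with a close neighbouring copy that can share reads, was 386, 379, 356, 291 and 325 TPM in culture and 14.6 to 130.1 TPM (median 46.04) in tumors (log2 -2.98 ± 0.32 SE, adjusted p = 1.65e-07). Adh7, an alcohol and retinol dehydrogenase, fell by 2.61 on the log2 scale, Ramp3, a partner of calcitonin-family receptors, by 2.71, and Gas1, a growth arrest protein of the cell surface, by 2.39. Rab15, Gxylt2, Mmd and Atp13a4 fell by 2.59, 2.36, 2.29 and 2.28. Prl2c2, proliferin, of a family with near-identical copies, was 531, 113, 126, 125 and 138 TPM in culture and 15.8 to 47.2 TPM (median 25.9) in tumors. Its difference was -2.58 with culture replicate 1 and -2.17 without it. The part of host RNA in these falls was not tested.

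**Figure D4:**
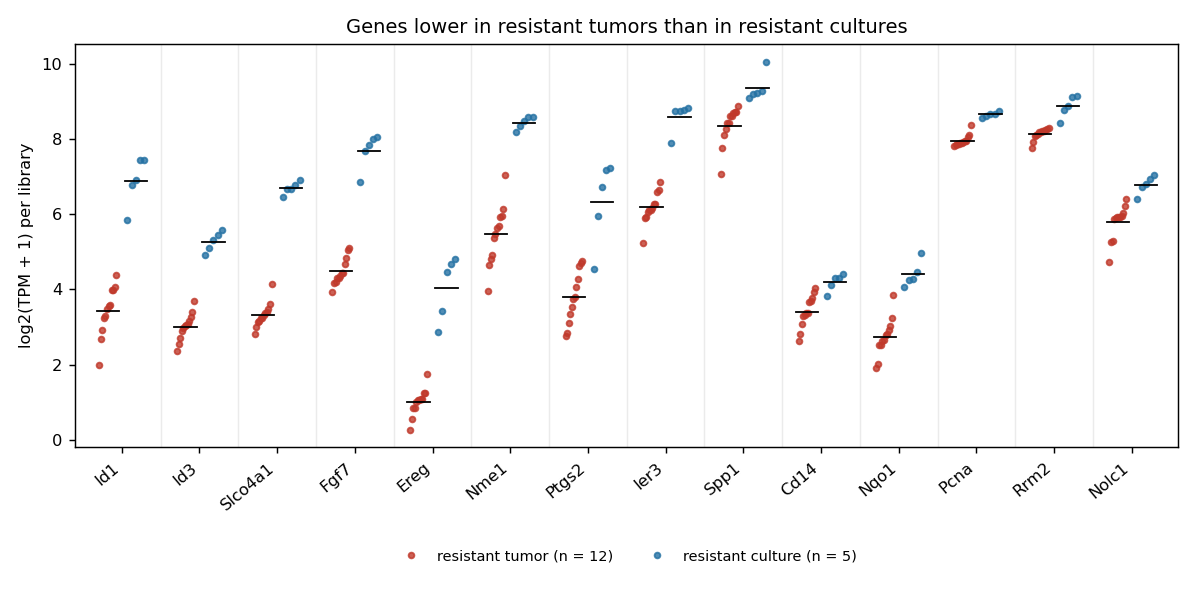
Level of 14 genes that were lower in tumors (log2(TPM + 1), vertical axis) per library in 12 resistant tumors (red) and 5 resistant cultures (blue); points are libraries, spread sideways by value within a group, and black lines are group means. Ptgs2 and Cd14 overlap between the groups, the other 12 genes do not, and the shifts of Spp1, Pcna, Rrm2 and Nolc1 are smaller than those of Id1, Slco4a1 and Fgf7.

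Cell cycle genes were lower in part. Of 25 genes 12 fell, 1 rose and 12 were not called, with a median of -0.34, against 15% lower over all genes. After quantile normalization 11 fell and 3 rose, with a median of -0.21, against 29.1% lower and a median of -0.13 over all genes. The excess of falls over all genes was thus smaller under that scaling. Ccnb1, cyclin B1, was 89.96, 138, 143, 94.4 and 108 TPM in culture and 41.7 to 73.9 TPM (median 48.5) in tumors (log2 -1.04 ± 0.17 SE, adjusted p = 3.01e-05). Rrm2 and Pcna, for nucleotide supply and the replication clamp, fell by 0.73 and 0.69 on the log2 scale, and the replication licensing factor Cdc6 by 0.69. Mki67, the proliferation antigen, was not called, with 125, 122, 157, 207 and 165 TPM in culture and 153 to 222 TPM (median 179) in tumors (log2 0.26 ± 0.11 SE, adjusted p = 0.0626). Top2a, a mitotic topoisomerase, was not called either (log2 0.28 ± 0.12 SE, adjusted p = 0.0688). Both were called higher after quantile normalization (adjusted p = 0.0236 and 0.0234). Every tumor lay below every culture for Ccnb1, Rrm2, Pcna and Cdc6. Bub1b, a spindle checkpoint kinase, was the 1 gene that rose on the values as deposited (log2 0.35 ± 0.09 SE, adjusted p = 0.00236).

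Genes of ribosomes and respiration were lower, by less than 2-fold at the median. Of 18 ribosome biogenesis genes 12 fell and none rose, with a median of -0.41, and 11 fell after quantile normalization. Nolc1, a nucleolar scaffold, was 83.8, 104, 122, 132 and 111 TPM in culture and 25.6 to 83.5 TPM (median 60.1) in tumors (log2 -0.996 ± 0.20 SE, adjusted p = 3.77e-04). Npm1, nucleophosmin, was lower by 0.44 on the log2 scale, a call that ended without culture replicate 3 or 5 (adjusted p = 0.0552 and 0.0894). Of 38 ribosomal protein genes 24 fell and 1 rose, with a median of -0.39. Rpsa, a small subunit protein, fell by 0.92. After quantile normalization 13 of 38 fell, close to the 29.1% of all genes lower under that scaling. Of 26 nuclear genes of oxidative phosphorylation 17 fell and 1 rose, with a median of -0.38, and 14 fell after quantile normalization. Ndufa4, a subunit of the respiratory chain, was 399, 434, 344, 365 and 421 TPM in culture and 176 to 299 TPM (median 229) in tumors (log2 -0.78 ± 0.12 SE, adjusted p = 2.60e-05), and Cycs, cytochrome c, fell by 0.84. Ribosomal protein and respiratory chain transcripts are short, the length index given above separates tumors from cultures, and its part in these falls was not tested. Mitochondrially encoded genes did not fall with them: 3 of 7 tested rose and none fell, and 5 rose with the GC index as a covariate, while 4 rose and 1 fell after quantile normalization. mt-Co1, of respiratory complex IV, was 7779, 5139, 5684, 6885 and 5896 TPM in culture and 14840.0 to 30927 TPM (median 19825) in tumors (log2 1.77 ± 0.18 SE, adjusted p = 8.18e-08), whereas mt-Nd1, of complex I, was not called (log2 -0.05 ± 0.17 SE, adjusted p = 0.841).

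Targets of NRF2, the regulator of antioxidant defence, fell in 9 of 14 and rose in 1, with a median of -0.61, and 10 fell after quantile normalization. Nqo1, a quinone reductase, was 30.4, 17.98, 18.3, 15.8 and 21.1 TPM in culture and 2.79 to 13.3 TPM (median 5.62) in tumors (log2 -1.67 ± 0.24 SE, adjusted p = 6.28e-06). Slc48a1, a heme transporter, was 124, 133, 171, 137 and 150.0 TPM in culture and 38.95 to 57.1 TPM (median 51.7) in tumors (log2 -1.51 ± 0.11 SE, adjusted p = 3.39e-10), and Gclm, of glutathione synthesis, fell by 0.98. Hmox1, heme oxygenase, which macrophages also make, was higher (log2 0.53 ± 0.17 SE, adjusted p = 0.0114), a call that ended in 1 fit over all 32 libraries (adjusted p = 0.0559). Of 14 genes of the unfolded protein response 5 fell and 1 rose, and 8 fell after median-of-ratios scaling or with the GC index as a covariate. Manf, a secreted stress factor, Hyou1, a chaperone, and Pdia6, a disulfide isomerase, fell by 1.01, 0.82 and 0.79 on the log2 scale, while the main chaperone Hspa5 was not called (log2 -0.26 ± 0.13 SE, adjusted p = 0.101) and Xbp1 was not called (log2 0.15 ± 0.10 SE, adjusted p = 0.231). With the GC index in the fit Hspa5 was called lower (adjusted p = 1.13e-04).

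Integrated stress response genes gave 7 higher, 3 lower and 8 not called of 18, shares near the 35.3% higher and 15% lower over all genes. With the GC index as a covariate 5 were lower. The regulators Trib3 and Ddit3 rose by 1.78 and 0.97, and Atf3 was 1.81 to 6.42 TPM (median 3.26) in tumors against 1.63 TPM in culture replicate 1 and 0 in the others. Psat1 and Shmt2, of serine and one-carbon metabolism, and Slc7a11, the cystine transporter, were the 3 lower genes, by 0.89, 0.68 and 0.76. Atf4, their main activator, was not called (log2 -0.24 ± 0.16 SE, adjusted p = 0.224), but was lower with the GC index as a covariate (log2 -0.40, adjusted p = 0.00343). Asns, asparagine synthetase, was not called (log2 0.08 ± 0.12 SE, adjusted p = 0.601). In lipid metabolism, 4 of 19 cholesterol synthesis and uptake genes rose and none fell, a smaller share than the 35.3% over all genes, with 8 higher without culture replicate 1. In turn 3 of 11 fatty acid synthesis genes fell and 1 rose, and 3 fell and 3 rose without that replicate. Hmgcs1, an early enzyme of cholesterol synthesis, rose by 0.93 and Fdft1, squalene synthase, by 0.94. Fasn, fatty acid synthase, was 545, 617, 629, 752 and 574 TPM in culture and 325 to 481 TPM (median 395) in tumors (log2 -0.64 ± 0.10 SE, adjusted p = 2.18e-05). Its regulator Srebf1 fell by 0.46, and the desaturase Scd2 fell by 0.62 while Scd1 was not called (log2 -0.13 ± 0.17 SE, adjusted p = 0.544).

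Whether the resistant line differed from the parental line in how tumor and culture differ was tested with an interaction term over all 32 libraries. Across 15061 genes the 2 lines' tumor minus culture values had a Pearson r of 0.80 and a Spearman rho of 0.71, given as a description over genes, which are not independent replicates. The difference was called for 604 genes (4.01%), 361 positive, meaning a larger tumor minus culture value in the resistant line, and 243 negative. Parental culture has 2 libraries, and the count rests on them: it was 465 without parental culture replicate 1 and 231 without parental culture replicate 2. Without resistant culture replicate 1 it was 714. With array weights it was 1395.

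The largest positive differences belonged to genes whose level was higher in parental than in most resistant cultures. Blnk, a B cell adaptor protein, stood at 129.9 and 82.96 TPM in the parental cultures, at 3.93, 0.466, 0.527, 0.340 and 0.196 TPM in the resistant cultures and at 3.12 to 8.34 TPM (median 4.83) in resistant tumors. It was 2.51 to 20.7 TPM in parental tumors, all below the parental cultures (interaction 4.76 ± 0.51 SE, adjusted p = 7.87e-08). Col4a1 and Col4a2, the basement membrane collagen chains, were 78.2 and 51.7 TPM and 37.4 and 37.7 TPM in the parental cultures. In resistant culture Col4a1 was 18.3, 1.11, 0.171, 0.0622 and 1.30 TPM and Col4a2 10.2, 0.303, 0.142, 0.194 and 1.11 TPM, high in replicate 1 alone, and tumors of the 2 lines overlapped, at 16.1 to 58.9 TPM (median 29.9) in resistant and 24.9 to 76.7 TPM in parental tumors for Col4a1. The interaction was 4.10 for Col4a1 and 3.79 for Col4a2, and 4.82 and 4.40 without that replicate. Sod3, the extracellular superoxide dismutase, Arl6ip1, an endoplasmic reticulum shaping protein, and Cryab, a small heat shock protein, had the same form, with interactions of 4.31, 3.68 and 4.05. Resistant culture replicate 1 held 4.21 TPM of Sod3 and 11.9 TPM of Arl6ip1, above every other resistant culture, and without it the interactions were 4.75 and 4.20. The Cryab call ended without parental culture replicate 2 (adjusted p = 0.157).

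The largest negative differences belonged to genes whose level was higher in resistant than in parental culture. Dcn was 1.67 and 6.81 TPM in the parental cultures and 13.04 to 638 TPM in parental tumors, against the 211 to 791 TPM of resistant cultures given above (interaction -5.48 ± 0.95 SE, adjusted p = 2.39e-04). Mmp9, a gelatinase that neutrophils also make, was 0.0719 and 1.84 TPM in parental and 80.4, 138, 179, 148 and 123 TPM in resistant culture, and 300.2 to 544 TPM (median 430.4) in resistant tumors (interaction -4.74 ± 0.62 SE, adjusted p = 3.52e-06). Fyb, an adaptor of T and myeloid cells, was 0.467 and 3.03 TPM in parental culture, 66.1, 34.1, 39.5, 47.3 and 43.8 TPM in resistant culture and 69.9 to 201 TPM (median 105) in resistant tumors. Stxbp2, of vesicle release, was at most 0.510 TPM in parental culture and 16.5, 58.9, 79.2, 95.3 and 66.3 TPM in resistant culture, and Slc4a5, a bicarbonate transporter, was 0.993 and 1.14 TPM and 70.7, 49.9, 59.1, 70.9 and 60.4 TPM. Resistant tumors were at 37.3 to 138 TPM (median 60.9) for Stxbp2 and 18.5 to 46.1 TPM (median 30.5) for Slc4a5. Rhox2d, a homeobox gene with near-identical copies, completed the list (-4.72), and its call ended without parental culture replicate 1 (adjusted p = 0.0662).

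**Figure D5:**
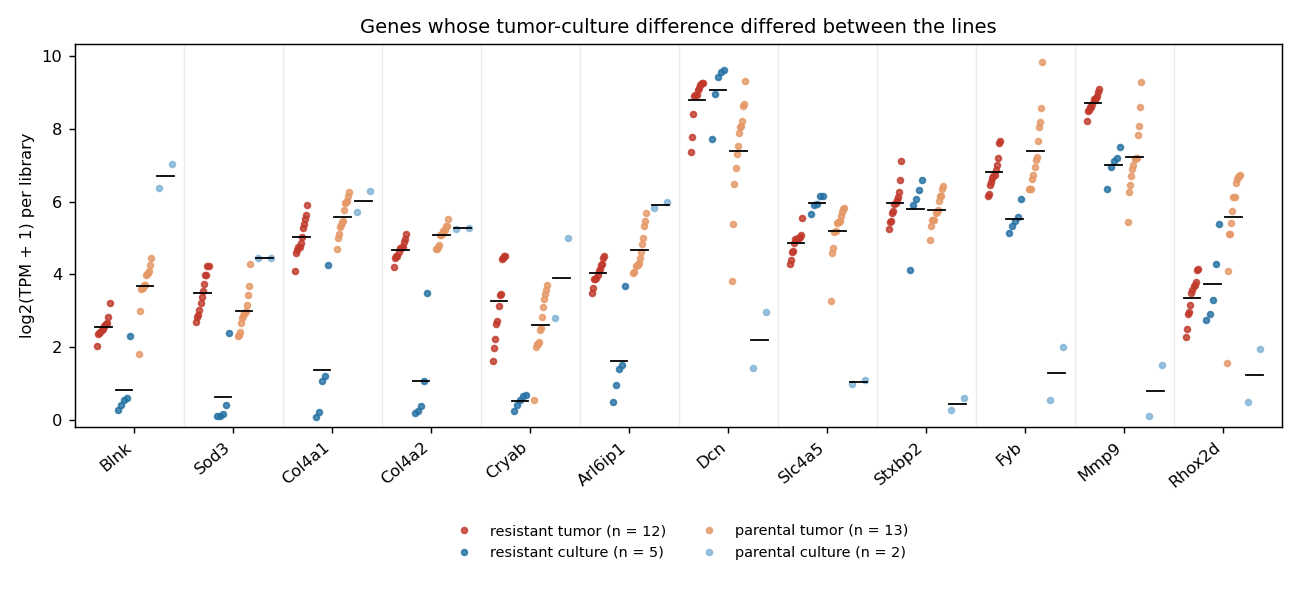
Level of the 12 named genes whose tumor minus culture difference differed between the lines (log2(TPM + 1), vertical axis), in resistant tumors (n = 12, red), resistant cultures (n = 5, blue), parental tumors (n = 13, orange) and parental cultures (n = 2, light blue); points are libraries, spread sideways by value within a group, and black lines are group means. For Blnk to Arl6ip1 parental cultures lie above resistant cultures, of which replicate 1 is the highest for all but Cryab, and for Dcn to Rhox2d the resistant cultures lie above the parental ones.

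No member of the hypoxia (17 tested), cell cycle (25) or MHC class II (10) lists was called in the interaction, which does not show that they changed alike, since parental culture has 2 libraries. Among type I interferon genes, Oas2, Oas3 and Bst2 had a larger rise in the resistant line, by 2.14, 2.26 and 1.17. The 2 parental cultures lay far apart on these genes, with 4.57 and 27.1 TPM of Oas3 and 276 and 721 TPM of Bst2. All 3 calls ended without parental culture replicate 2 (adjusted p = 0.498, 0.103 and 0.667). The rise of Lgals9 was also larger in the resistant line (2.68 ± 0.31 SE, adjusted p = 2.51e-07), with 55.5 and 105 TPM in parental culture and 151 to 290.4 TPM in parental tumors. Ccl2 fell in the resistant line with a difference from the parental line of -2.14, and stood at 225 and 183 TPM in parental culture and 123 to 327 TPM in parental tumors.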

How the data were processed

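Poly(A) RNA libraries of MC38 tumors and cultures were made with the KAPA RNA HyperPrep kit, per the labels' protocols. The authors deposited 1 table of TPM values for 22329 gene symbols, in which each library sums to 1000000; no read counts were used here, so depth is unknown. The submitters' processing notes name STAR and GRCh38, a human build, although the symbols are those of mouse genes, and the quantifier and annotation are not given in the sources used here. Samples were grouped by their labels, and replicate numbers follow accession order.

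TPM values were converted to log2(TPM + 1). Genes with at least 1 TPM in at least 5 of the 17 resistant libraries were fitted with limma 3.58.1 (trend, empirical Bayes, R 4.3.3), with Benjamini-Hochberg adjustment over all tested genes. The difference between the lines was an interaction term over 32 libraries, for genes with at least 1 TPM in at least 2. On simulated data made for the tumor and culture comparison (12312 genes), 86% of 2-fold and 99% of 4-fold changes were recovered. For the difference between the lines (15061 genes) these were 39% and 92%. In both simulations changes were put into well expressed genes only, 100 per fold, and no other gene was changed. The noise was normal, with the same spread in every group. Recovery among low genes was not simulated. Tables and figures used Python 3.11.15 with pandas 2.3.3 and matplotlib 3.10.9.

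The members and the 58 gene lists were chosen with earlier results of these data known. Named genes were the 10 largest rises among genes under 0.1 TPM in every culture, the 12 largest among genes of at least 5 TPM in every culture, the 15 largest falls among genes whose culture mean reached 5 TPM, and the 6 largest differences of each sign between the lines. For each list, its first 2 members and up to 4 with the lowest adjusted p were added. Members named for moving against their list, such as Cd14, Cxcl10, Socs1, Calr, Pdia3, Spp1, Bub1b, Id2 and Psat1, and Cd276, Il11, Twist2 and S100a4 were named after their values were seen. Alternatives covered the pseudocount, the filter, 3 scalings, moderation, weights, a GC covariate, an exact rank-sum test and leaving out each library. Promoters are the RefSeq sequences on GRCm38.p6.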

Additional observations from a re-analysis of the deposited data

Results flagged for a closer look

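In 16 of 148 culture values tested, 1 of the 5 resistant cultures lay far from the other 4 by Dixon's criterion, which chance meets in about 1 in 20. Of these, 14 were culture replicate 1. It was high for Prl2c2 (530.9 TPM), Blnk (3.93 TPM), Col4a1 (18.3 TPM), Col4a2 (10.2 TPM), Spp1 (1049 TPM), Pfkp (160.0 TPM), mt-Nd1 (32838 TPM), Dusp1 (5.57 TPM) and S100a4 (1529 TPM). It was low for Ier3 (237 TPM), Stxbp2 (16.5 TPM), Socs1 (14.04 TPM), Il11 (1.89 TPM) and Egr1 (27.2 TPM). The other 2 were low values of culture replicate 4, for Rab15 (5.34 TPM) and Manf (646 TPM). The values of Blnk, Col4a1, Col4a2 and Stxbp2 in replicate 1 lie on the side of the parental cultures. Of 60 genes lower in both parental cultures than in the other 4 resistant cultures, replicate 1 was below all 4 in 46 (76.7%). The other replicates, taken the same way on their own 36 to 40 genes, gave 11.1% to 27.5%. Their comparison included replicate 1, so these shares are in part set by it.

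Of the 212 named genes, the tumor minus culture difference differed between the lines for 39, by the interaction test over 32 libraries. Over all 15061 genes tested it was called for 4.01%. The 6 largest differences of each sign were named because of this same test, so selection raises the share among named genes. Values are log2, resistant minus parental. Among genes of matrix and vessels they were 4.10 for Col4a1, 3.79 for Col4a2, 3.39 for Col3a1 and -5.48 for Dcn, with 1.80 for Notch1. Among immune genes, the type I interferon genes Oas2, Oas3 and Bst2 had 2.14, 2.26 and 1.17, Tap1 had 0.85, Pdia3 0.83, Lgals9 2.68, Cd276 2.67 and Serping1 1.41. The chemokines Cxcl10 and Ccl2 and the cytokine Il11 had -2.20, -2.14 and -1.77. The macrophage genes Tyrobp and C1qa had -1.10 and -1.35. Laptm5, Fyb and Mmp9, which the cultured resistant line itself expresses, had -4.67, -4.82 and -4.74. Metabolic and stress genes had 1.25 for Pfkp, 1.03 for Fdft1, 0.79 for Pdia6, 2.22 for Nqo1, 0.91 for Ftl1, -2.89 for Apoe, 4.31 for Sod3 and 4.05 for Cryab. Transcription and early response genes had -1.53 for Egr1, 2.14 for Btg2, 1.24 for Id3 and 1.92 for Id2. The rest were 4.76 for Blnk, 3.68 for Arl6ip1, -2.35 for Rab15, -5.26 for Slc4a5, -5.18 for Stxbp2 and -4.72 for Rhox2d.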

How the results depend on the processing

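Over the alternatives, 3965 to 4386 genes were higher and 1577 to 1857 lower when each library in turn was left out. After quantile normalization 2279 genes were higher and 3577 lower, and with a 2-fold minimum 2013 and 180. The other alternatives kept both counts within 1.5 times. Of 212 named genes, 186 kept direction and side of the threshold in every alternative that tested them. Many were named for a large difference or a low adjusted p in the main fit, so selection raises this count. No named gene reversed a call. Ccl7, Cxcl1, Il11 and Npm1 lost theirs most often, and S100a4 lost it without culture replicate 1 (adjusted p = 0.0540). The difference between the lines was called for 231 to 714 genes when each library was left out and for 1395 with array weights. Of the 39 named differences, 17 missed the threshold without parental culture replicate 2 and 11 without parental culture replicate 1, where 1 culture is assumed to vary like the other groups. Among these differences, the Fdft1 call was kept in 19 alternatives and lost in 21. Of 174 list medians under other scalings or pseudocounts, only 104 stayed within the SD of the list's tumor scores from the main value. The rest moved further, and 6 changed sign, so list medians depend on the scaling. The length index could not be a covariate, since it separates the groups. No paired analysis was possible because replicate numbers follow accession order and pair no tumor with a culture. Depth is unknown, and 2 parental cultures limit the difference between the lines.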

Other observations

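Counts for gene groups outside the account above are given beside the 35.3% of all tested genes that were higher and the 15% that were lower. Of 17 lysosome genes 11 rose and 1 fell: Grn, progranulin, went from 226 to 290.4 TPM in culture to 536 to 673 TPM (median 596) in tumors, Psap, the saposin precursor, rose by 1.16 on the log2 scale, and the protease Ctsl was lower (log2 -0.69 ± 0.12 SE, adjusted p = 5.20e-05). Of 8 genes of cholesterol efflux 6 rose and 1 fell (4 and 1 after quantile normalization), among the rises Apoe, which was 6.28, 2.20, 12.1, 4.76 and 18.3 TPM in the 5 cultures and 369.7 to 829 TPM (median 550.2) in tumors (log2 6.14 ± 0.28 SE, adjusted p = 1.28e-13). Of 10 iron genes 6 rose and 2 fell (3 and 3 after quantile normalization), with Tfrc, the transferrin receptor, lower (log2 -0.78 ± 0.18 SE, adjusted p = 9.80e-04) and Hp, haptoglobin, at 1.79 to 21.004 TPM (median 11.6) in tumors and listed at 0 in all cultures. Gpx3, the secreted glutathione peroxidase, was 26.6 to 83.2 TPM (median 72.4) in tumors and at most 0.917 TPM in culture. Of 13 selenoprotein genes, Gpx3 included, 4 rose and 3 fell, shares near those over all genes. Macrophage markers rose in the same tumors, and their part in these groups was not tested.

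Of 16 clock genes 10 rose and 1 fell. The repressors Bhlhe40 and Bhlhe41 rose by 3.39 and 2.52 on the log2 scale, Bhlhe40 from 47.99, 26.7, 20.9, 21.3 and 22.9 TPM in the 5 cultures to 185 to 456 TPM (median 281) in tumors, while Clock was lower (log2 -0.50 ± 0.10 SE, adjusted p = 3.15e-04). The list's median was 0.63 as deposited and -0.09 after quantile normalization, when 4 rose and 5 fell. Of 16 p53 targets 7 rose and 3 fell (4 and 5 after quantile normalization), with Cdkn1a, the cell cycle inhibitor p21, higher (log2 0.70 ± 0.13 SE, adjusted p = 2.13e-04) and Fas, a death receptor, at 2.35 to 9.94 TPM in culture and 10.2 to 31.6 TPM (median 22.7) in tumors. Of 12 genes of mesenchymal transition 7 rose and 4 fell: the repressor Zeb2 rose by 1.59 and the integrin Itgb3 by 2.62, and Twist2 was lower (log2 -1.28 ± 0.18 SE, adjusted p = 7.67e-06). Heat shock genes gave 4 higher and 4 lower of 10, and 2 and 5 without the 4 tumors of high GC index.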
